A study of Mus musculus with 18 samples.

Results

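The 6 M/D-driven mammary tumors profiled here were compared with one another, gene by gene, to find which parts of the transcriptome differed from tumor to tumor and which were shared. A gene was kept when 1 gene symbol was assigned to its transcript cluster (the set of probes that measures it on the array) and its mean over the 6 tumors was above 6 on the log2 scale, a level above 5.36, the 95th percentile of the 18-array means of 1078 olfactory receptor genes. This left 14370 of 27030 genes, or 53.2%. Of the 27030 genes, 5 were placed on chromosomes 17, 18 and 19 and 301 had no chromosome in the RefSeq table. Other genes of those chromosomes were not analysed here, so every rank below holds without them. The measure of heterogeneity was the standard deviation (SD) of a gene's log2 value over the 6 tumors, so that an SD of 1 is a typical departure of 1 doubling from the tumor mean.

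M/D-driven tumors arose in female C57Bl/6 mice that carried a 50 mg pellet under the skin from 6 to 9 weeks of age, which released medroxyprogesterone acetate (MPA), a progestin made by synthesis, for 90 days. The mice also received 7,12-dimethylbenz[a]anthracene (DMBA, a carcinogen of the polycyclic aromatic hydrocarbon class) by mouth as 6 doses of 200 µL at 5 mg per mL, in weeks 1 to 3 and 5 to 7 counted from the pellet, and tumors were taken when they measured 0.7 to 1 cm2. The hyperplastic glands (6 samples) came from females given the same MPA and DMBA that had formed no tumor, and the normal glands (6 samples) from females given neither agent. Each sample was bulk RNA of a gland or tumor on 1 array, and the labels do not tie samples to mice, although the study describes a single experiment with groups counted in mice. The spread described below is the spread between samples. The tumors are endogenous, and each sample holds cancer cells together with stroma, fat, vessels and immune cells. In such bulk RNA, fewer cells of a type and less RNA per cell cannot be told apart.

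The mammary epithelium is built of luminal cells, which express keratins such as Krt8 and Krt18, and of an outer basal layer, which expresses Krt5 and Krt14 and contracts to move milk. A subset of luminal cells carries the estrogen receptor (Esr1) and the progesterone receptor (Pgr) and relays hormone signals to its neighbors, while alveolar luminal cells make milk proteins under the control of prolactin, STAT5 and the transcription factor Elf5. Skin appendages and mammary glands share an embryonic origin in the surface ectoderm, and squamous differentiation is known in mouse mammary tumors.

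Milk protein genes led the 14370 genes by SD, and 6 of the 20 genes with the highest SD belonged to the milk and alveolar list. Promoters are shown for the 5 milk genes of highest SD, which were the genes on which the tumors differed most within this list. Each window runs from 250 bases before to 50 bases after the transcription start in RefSeq (build GRCm38.p6), and capitals mark the letters TTCNNNGAA, the consensus bound by STAT5, which reads the same on both strands. The windows are chr5:87665958-87666257 on the plus strand for Csn1s1, chr5:87774200-87774499 on the plus strand for Csn1s2a, chr15:103565032-103565331 on the minus strand for Glycam1, chr15:98482634-98482933 on the minus strand for Lalba and chr5:87699376-87699675 on the minus strand for Csn2.
Csn1s1: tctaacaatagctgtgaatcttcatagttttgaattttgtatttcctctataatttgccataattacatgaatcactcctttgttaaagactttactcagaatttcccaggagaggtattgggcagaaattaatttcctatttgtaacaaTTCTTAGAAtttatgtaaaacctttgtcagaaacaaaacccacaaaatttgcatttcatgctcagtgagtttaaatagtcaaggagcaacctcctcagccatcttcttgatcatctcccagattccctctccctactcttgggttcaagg
Csn1s2a: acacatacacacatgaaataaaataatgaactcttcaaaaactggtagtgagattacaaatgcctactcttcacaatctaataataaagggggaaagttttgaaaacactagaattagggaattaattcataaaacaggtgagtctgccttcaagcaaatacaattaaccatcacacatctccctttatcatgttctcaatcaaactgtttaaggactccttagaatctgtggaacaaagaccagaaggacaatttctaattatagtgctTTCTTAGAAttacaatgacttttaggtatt
Glycam1: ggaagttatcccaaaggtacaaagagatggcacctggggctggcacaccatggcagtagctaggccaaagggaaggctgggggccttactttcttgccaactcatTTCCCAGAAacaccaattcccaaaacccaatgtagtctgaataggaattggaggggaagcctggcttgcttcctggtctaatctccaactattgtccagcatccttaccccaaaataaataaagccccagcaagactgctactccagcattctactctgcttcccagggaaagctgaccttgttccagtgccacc
Lalba: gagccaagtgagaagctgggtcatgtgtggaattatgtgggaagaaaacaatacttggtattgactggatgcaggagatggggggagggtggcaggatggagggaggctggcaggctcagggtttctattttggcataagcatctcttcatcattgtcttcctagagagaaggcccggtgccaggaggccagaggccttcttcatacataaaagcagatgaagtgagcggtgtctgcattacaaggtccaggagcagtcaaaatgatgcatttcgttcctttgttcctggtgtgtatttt
Csn2: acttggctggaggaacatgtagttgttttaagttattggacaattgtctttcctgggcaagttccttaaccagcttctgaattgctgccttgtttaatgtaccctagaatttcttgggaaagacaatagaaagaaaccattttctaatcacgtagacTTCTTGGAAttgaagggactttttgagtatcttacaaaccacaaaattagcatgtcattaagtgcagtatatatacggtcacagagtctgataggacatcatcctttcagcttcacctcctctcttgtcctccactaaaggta
The match began 100 bases before the start in Csn1s1, 145 bases before it in Glycam1 and 93 bases before it in Csn2, whereas in Csn1s2a it began 20 bases after the start. Lalba held no match in this window. Of the 11 milk and alveolar genes with a window, 4 held the letters (36.4%), against 9.55% of all 27025 genes with a window. A match describes the sequence only.

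Csn1s1, which encodes an alpha casein, had the highest SD of all 14370 genes (2.95). Its log2 values in tumors 1 to 6 were 8.24, 8.01, 4.23, 10.58, 10.81 and 12.68. The value in tumor 3 was below 5.36, the level used here for background, so no fold against it is given. In hyperplastic glands it lay between 7.02 and 11.44 (median 10.20), and in normal glands between 6.43 and 11.12 (median 9.49), so that only tumors 3 and 6 lay outside the range of the glands. Csn1s2a, a second casein of the same cluster of genes on chromosome 5, had an SD of 2.79 with values of 5.34, 7.97, 5.25, 6.46, 6.99 and 12.76. Csn2, the gene of beta casein, had 4.88, 7.03, 4.8, 6.39, 6.17 and 11.59 (SD 2.50). Tumor 6 was thus highest for all 3 caseins, and none of the other 5 tumors exceeded 7.97 for Csn1s2a or 7.03 for Csn2.

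Other milk genes gave a different order of tumors. Lalba, the lactose synthase component alpha-lactalbumin, was high in 3 tumors, with values of 6.88, 5.65, 6.13, 9.84, 11.39 and 11.03 in tumors 1 to 6 (SD 2.56). Btn1a1, which encodes the milk fat globule protein butyrophilin, followed the same division, with 6.26, 6.03, 6.06, 8.73, 10.85 and 9.45 (SD 2.07). Glycam1, a mucin-like milk protein that high endothelial venules of lymph nodes also make, was at 5.08, 5.76, 5.26, 6.15, 9.09 and 11.69 (SD 2.65), against 10.28 to 11.26 in hyperplastic glands and 9.86 to 10.95 in normal glands. Only tumor 6 reached the level of the glands for Glycam1. Csn3, the kappa casein gene, was uniform apart from tumor 3, with 9.66, 8.90, 5.01, 10.14, 9.74 and 9.85 (SD 1.94). Elf5, the transcription factor of the alveolar lineage, was likewise lowest in tumor 3, with 8.53, 8.94, 6.20, 9.93, 10.36 and 9.56 (SD 1.49).

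Over the 13 milk and alveolar genes that passed the level of 6, of 16 measured, the median SD was 1.94 in tumors, against 0.687 in hyperplastic glands and 0.354 in normal glands. All 13 had a higher SD in tumors than in either group of glands. Tumor 3 was lowest for 7 of the 13, while tumor 6 was highest for 6 and tumor 5 for 5. The level is set on the tumor mean, which a high value in a single tumor raises, as tumor 6 did for Csn2. Over 4 caseins, a group formed after values were seen, the median SD was 2.65 in tumors, against 1.46 in hyperplastic and 1.3 in normal glands.

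**Figure D1:**
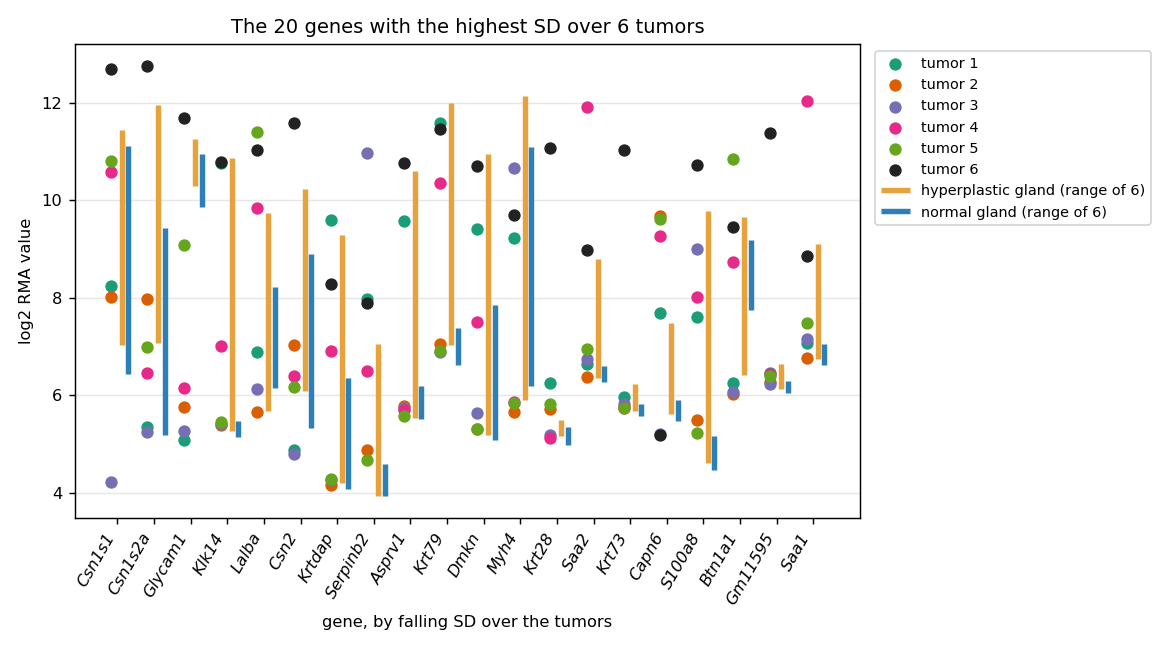
Log2 RMA values (vertical axis) of the 20 genes with the highest SD over the 6 tumors, ordered by falling SD (horizontal axis). Each point is 1 tumor, and the bars give the range of 6 hyperplastic and 6 normal glands. Tumor 6 holds the highest value for the 3 caseins, Krt28, Krt73 and Gm11595, and tumor 4 for Saa1 and Saa2.

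Genes of the epidermis and the hair follicle were the next large source of differences. Klk14, a serine protease of the outer epidermis, had values of 10.76, 5.39, 5.42, 7.01, 5.46 and 10.78 in tumors 1 to 6 (SD 2.63). Krtdap, a keratinocyte differentiation gene, had 9.60, 4.15, 4.27, 6.91, 4.28 and 8.29 (SD 2.37), and Krt79, a keratin of the hair canal and sebaceous duct, had 11.59, 7.06, 6.89, 10.36, 6.90 and 11.45 (SD 2.33). Tumors 1 and 6 were high for all 3 genes, tumor 4 was between, and tumors 2, 3 and 5 were low. Asprv1, an epidermal protease, was high in tumors 1 and 6 alone (9.58 and 10.77, with 5.57 to 5.77 in the other tumors). Dmkn, a secreted protein of the differentiating epidermis, had 9.41, 5.30, 5.63, 7.51, 5.31 and 10.70.

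These genes were not specific to tumors. Hyperplastic gland 3 had 10.87 for Klk14 and 12.00 for Krt79, while the other hyperplastic glands lay between 5.26 and 5.97 and between 7.04 and 7.51. The same sample was also apart for S100a8, at 9.78 against 4.61 to 5.74 in the other 5 hyperplastic glands. Accordingly, the squamous cornification list (11 of 19 measured genes above the level) had a median SD of 1.16 in tumors and 1.12 in hyperplastic glands, against 0.213 in normal glands. Its SD was higher in tumors than in hyperplastic glands for 7 of the 11 genes. The level is set on the tumor mean, so genes high in a few tumors could pass it while genes high only in hyperplastic gland 3 could fail it. This comparison of SDs is therefore not even between the groups. Among normal glands, which received neither agent, gland 5 was apart for Krt10 (8.90, at most 6.16 in the others). It was also apart for Dmkn (7.86, at most 5.42 in the others) and Krtdap (6.35, at most 4.29), but not for Klk14 (5.15). Over 8 epidermal kallikreins, a group put together after their values were seen, the mean centred log2 value was 1.51 in tumor 1 and 1.69 in tumor 6, and between -1.19 and -0.09 in the other 4 tumors. They were the 8 of 10 measured that passed the level, which high values in tumors 1 and 6 favor.

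Keratins of the hair shaft and its inner root sheath were high in 1 of the 18 arrays, that of tumor 6. Krt28 was at 11.06 in tumor 6 and between 5.12 and 6.25 in tumors 1 to 5, against 5.16 to 5.49 in hyperplastic and 4.97 to 5.35 in normal glands. Krt73 was at 11.02 in tumor 6 and between 5.73 and 5.96 in the other tumors, and Gm11595, an array annotation on chromosome 11 with no assigned role here, at 11.38 and between 6.22 and 6.46. Krt86, Krt34, Krt27 and Krtap3-1 had the same form, with 11.25, 10.54, 10.17 and 10.62 in tumor 6 and at most 6.52, 6.10, 5.77 and 6.30 in the other tumors. Of 48 measured hair keratins and keratin-associated proteins, a group also formed after their values were seen, 21 passed the level of 6, and tumor 6 was highest for all 21. Most of these genes passed only through tumor 6, so their number says nothing beyond that sample. Their median pairwise correlation over the 6 tumors was 0.99, which rests on the same single tumor.

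Inflammatory and developmental genes marked further single tumors. Saa2 and Saa1, acute-phase serum amyloid genes with near-identical copies whose probes may not be separable, were at 11.91 and 12.03 in tumor 4. Tumor 6 followed with 8.98 and 8.85, and the other 4 tumors lay between 6.37 and 6.95 for Saa2 and between 6.77 and 7.48 for Saa1. S100a8, which encodes a calcium-binding protein of neutrophils and inflamed epithelium, had 7.61, 5.50, 8.99, 8.02, 5.23 and 10.73 in tumors 1 to 6 (SD 2.09). Its partner S100a9 gave the same order at the top, with 7.03, 5.82, 9.34, 8.25, 5.79 and 10.19 (SD 1.83).

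Wnt1, the secreted Wnt ligand whose activation by insertion of mouse mammary tumor virus causes mammary tumors, was at 10.28 in tumor 1. In tumors 2 to 6 it was between 5.49 and 5.66, against 5.43 to 5.68 in hyperplastic and 5.35 to 5.94 in normal glands, so that tumor 1 was the only one of 18 arrays above the low range. Negative feedback targets of Wnt signaling did not single out tumor 1. Axin2 had 7.28, 6.88, 7.15, 6.74, 6.87 and 8.85 in tumors 1 to 6, and Znrf3 had 8.70, 7.52, 7.06, 7.45, 7.23 and 8.68. Wif1, a secreted Wnt inhibitor, had 9.28, 6.36, 6.36, 6.40, 7.88 and 10.27. Tumor 6 was thus highest for Axin2 and Wif1, and tumors 1 and 6 were alike for Znrf3. Tumor 1 was above tumors 2 to 5 for Axin2, Znrf3 and Wif1. Over the 8 Wnt target genes above the level, tumor 6 had the highest mean centred value (1.05), while tumor 1 was at 0.08. Eya1, a transcriptional coactivator of organ development, was at 9.34 in tumor 1 and 9.31 in tumor 4 and between 5.4 and 6.28 in the other tumors, with no gland above 6.08. Wnt1 and Eya1 were singled out after their values were seen.

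Tumor 3 had the highest value of several further genes, of which Stmn2, Igf2, Hmga2, Ptgs2 and Ereg were taken up after their values were seen. Serpinb2, an inhibitor of urokinase, was at 7.98, 4.88, 10.97, 6.49, 4.67 and 7.90 in tumors 1 to 6 (SD 2.35). Stmn2, a microtubule regulator best known from neurons, was at 11.01 in tumor 3 and between 6.44 and 7.03 in the other tumors. Igf2, the imprinted fetal growth factor, was at 10.70 in tumor 3 and between 6.19 and 7.43 in the others, and Hmga2, a chromatin protein of fetal tissue, at 9.09 and between 5.85 and 6.67. The glands reached at most 7.59 for Stmn2, 7.07 for Igf2 and 6.09 for Hmga2. Ptgs2, the inducible cyclooxygenase, had 8.63, 7.33, 12.16, 9.13, 7.69 and 9.73, and Ereg, the ErbB ligand epiregulin, had 7.23, 6.85, 10.68, 7.86, 6.35 and 6.83.

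The remaining high-SD genes belonged to skeletal muscle and to genes that were low in tumors 3 and 6. Myh4, a fast myosin of skeletal muscle, had 9.23, 5.65, 10.66, 5.86, 5.85 and 9.70 in tumors 1 to 6 (SD 2.28). It also varied in hyperplastic glands (SD 2.65) and in normal glands (SD 2.09). The 15 muscle genes above the level had a median SD of 1.06 in tumors, against 1.53 in hyperplastic and 0.854 in normal glands, and only 2 of the 15 had a higher SD in tumors than in hyperplastic glands. Tumors 3, 6 and 1 had the highest muscle values (mean centred values of 1.62, 0.83 and 0.41). The part of muscle content in the other differences of these 3 tumors was not tested. Capn6, a calpain-family protein of embryonic muscle and placenta, had 7.68, 9.67, 5.21, 9.27, 9.61 and 5.19 (SD 2.12), and Reln, the extracellular protein reelin, had 8.36, 9.32, 5.78, 10.54, 9.51 and 5.91 (SD 1.98). Tumors 3 and 6 were lowest for both. For Capn6 they were below the background level of 5.36, and normal glands, at 5.47 to 5.90, were little above it, so that their order is not read. For Reln they were below all 12 glands, whose lowest value was 6.30.

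Among the 100 most variable genes, average linkage on correlation (groups separated at a distance of 0.5 on the scale of 1 minus r) gave 6 groups. The group of 27 genes was high in tumor 6 (mean centred value 3.29) and below the tumor mean in the other 5, and held Csn1s2a, Csn2, Glycam1, the hair keratins, S100a8 and S100a9. The group of 23 genes was low in tumors 3 and 6 (-2.29 and -0.94) and held Capn6, Reln, Csn3, Foxa1, Pgr and Esrp1. The group of 20 genes was highest in tumor 5 (2.20) and then tumor 4 (1.12) and lowest in tumor 3 (-1.91), with Csn1s1, Lalba, Btn1a1, Ltf, Oxtr, Myh11 and Elf5. The group of 18 genes was high in tumors 1 and 6 (2.17 and 1.86), with the epidermal genes, Wnt1 and Eya1. The group of 9 genes was highest in tumor 3 (3.02), with Serpinb2, Myh4, Ttn, Stmn2, Ptgs2, Igf2, Atp2a1, Neb and Ereg, and the group of 3 genes was highest in tumor 4 (3.63), with Saa1, Saa2 and Slc47a1. These values are means over each group, and not every named member followed them in tumor 6. There, Wnt1 and Eya1 were low (5.52 and 6.02) and Csn3 and Esrp1 were not low (9.85 and 9.63). Csn1s1 had its highest value in tumor 6 (12.68). With 6 samples, genes in a group share little more than the 1 or 2 tumors in which they were high or low.

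Each of the 100 genes had its highest value in tumor 6 in 38 cases and its lowest in tumor 3 in 40 cases. Over all 14370 genes, the tumor farthest from the tumor mean was tumor 3 for 4483 genes (31.2%), tumor 5 for 2707, tumor 6 for 2314, tumor 1 for 1938, tumor 2 for 1547 and tumor 4 for 1381. The first principal component of the 6 tumors carried 39.0% of the variance and placed tumor 3 at 49.1, with tumor 6 at 12.2 and the others between -25.2 and -3.3. Its genes at the high end were Serpinb2, Myh4, Ttn, Ptgs2 and Stmn2, and at the low end Capn6, Csn1s1, Reln, Csn3 and Muc15. The second component (21.6%) placed tumor 6 at 37.2, with the others between -19.7 and 8.3, and had Csn1s2a, Glycam1, Csn2, Csn1s1 and Krt28 at the high end and Nrg1, Pi15, Mest, Eya1 and Gm24564 at the low end. Nrg1, the ErbB ligand neuregulin, was at 9.76, 9.08, 8.63, 9.60, 7.93 and 6.64 in tumors 1 to 6, and Mest, an imprinted gene, at 10.94, 8.38, 8.17, 9.05, 8.12 and 7.2. Pairs of tumors that included tumor 3 differed by over 4-fold at 171 to 297 genes, against 50 to 167 genes for all other pairs.

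The epithelial lists varied more than most others. Of the 17 luminal epithelium genes above the level, all 17 were lowest in tumor 3 and 10 were highest in tumor 2, and their median SD was 1.12 in tumors, against 0.336 in hyperplastic and 0.178 in normal glands. Over all 14370 genes the median was 0.195 in the tumor group and 0.122 and 0.129 in hyperplastic and normal glands. The luminal genes moved together, with a median pairwise r of 0.89 over the 6 tumors, against 0.01 over all pairs of the 14370 genes. The part of tumor 3, lowest for all 17, in this r was not tested. Krt8 had 10.57, 12.35, 9.28, 11.95, 11.72 and 11.04 in tumors 1 to 6 (SD 1.12, or 0.715 without tumor 3), while the 6 hyperplastic glands lay between 10 and 11.37 and the 6 normal glands between 10.25 and 10.49. Krt18, its partner in the keratin filament, had 10.22, 12.05, 8.77, 11.51, 11.96 and 11.10. Muc1, an apical mucin, was at 7.78, 9.21, 7.77, 10.10, 11.22 and 10.31, and Ehf, an epithelial transcription factor, at 8.60, 9.36, 5.95, 8.90, 9.18 and 9.28. Esrp1, an epithelial splicing regulator, was at 5.95 in tumor 3 and between 9.40 and 9.86 in the other 5 tumors.

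All 8 basal epithelium genes above the level were also lowest in tumor 3. Krt5 had 11.75, 10.93, 8.84, 12.44, 11.80 and 11.59 in tumors 1 to 6 (SD 1.26), against 10.06 to 11.41 in hyperplastic and 9.99 to 10.39 in normal glands. Without tumor 3, the SD of Krt5 was 0.539. Trp63, the transcription factor of basal cells, had 8.56, 7.75, 6.04, 8.34, 7.73 and 7.46. Contraction genes of myoepithelium and smooth muscle gave another order. Tumor 5 was highest for 8 of these 9 genes and tumor 6 lowest for 5. Myh11, smooth muscle myosin, had 8.40, 9.85, 7.48, 10.10, 11.59 and 7.69, Cnn1 (calponin) had 8.59, 9.38, 8.38, 9.68, 11.63 and 7.5, and the median SD of the 9 genes was 0.883, against 0.275 and 0.135 in hyperplastic and normal glands. Krt5 and Cnn1 therefore ranked the tumors differently, with tumor 4 highest for Krt5 and tumor 5 highest for Cnn1. The basal keratins also differed from one another, as Krt14 was highest in tumor 6 (10.94) and Krt17 in tumor 1 (10.07).

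Pgr, the receptor that MPA binds, and Oxtr had the highest SDs among the hormone receptors. Pgr had 8.55, 10.16, 6.21, 8.89, 8.44 and 6.26 in tumors 1 to 6 (SD 1.56), against 7.10 to 8.94 in hyperplastic glands (SD 0.613) and 7.35 to 8.19 in normal glands (SD 0.304). Tumors 3 and 6 were below all 12 glands, and tumor 2 was above all 12. Esr1 had 6.58, 7.91, 6.26, 6.99, 7.31 and 6.46 (SD 0.616), against 7.16 to 7.81 in hyperplastic and 7.44 to 7.91 in normal glands. Foxa1, the pioneer factor that opens chromatin for the estrogen receptor, shared the low pair, with 8.91, 11.26, 7.36, 9.77, 10.42 and 7.29. Tnfsf11, the Pgr target RANKL through which hormone-sensing cells signal to their neighbors, had 6.06, 7.91, 6.76, 6.67, 6.12 and 6.33. Tumor 2 was thus highest for Esr1, Pgr, Foxa1 and Tnfsf11. Of 11 hormone-sensing luminal genes above the level, tumor 2 was highest for 7 and tumor 3 lowest for 5, and their median pairwise r was 0.29. Oxtr, the oxytocin receptor, belonged to the same receptor list but followed the contraction genes, with 8.17, 9.10, 6.62, 8.25, 11.26 and 7.28.

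**Figure D2:**
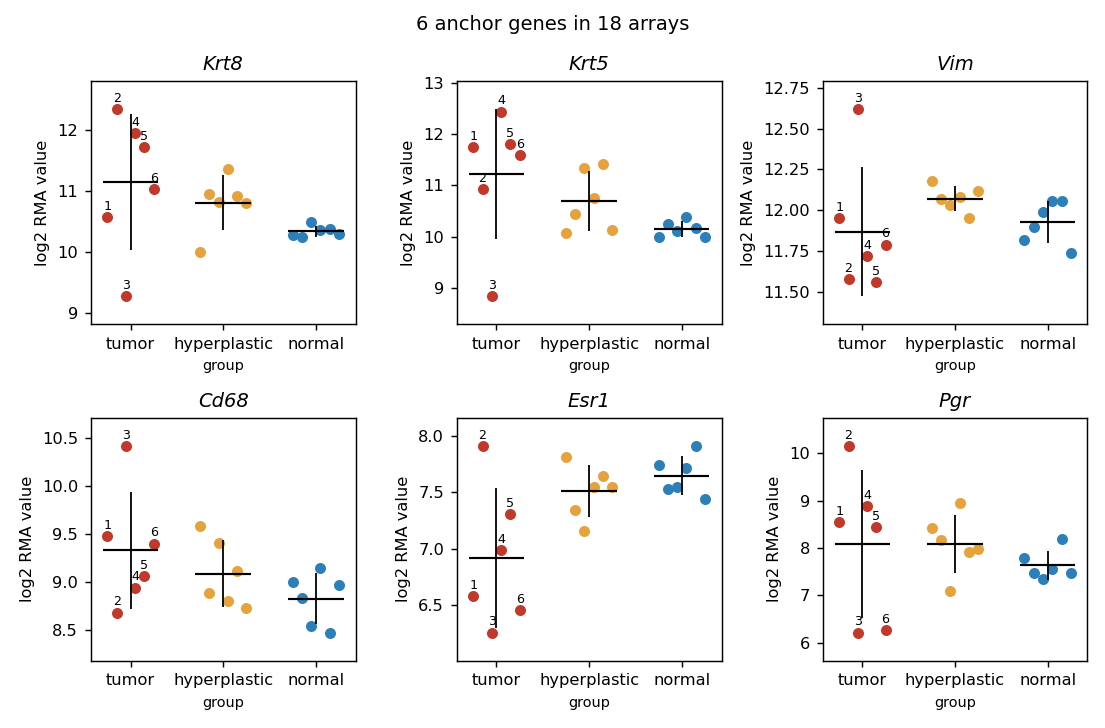
Log2 RMA values (vertical axes) of 6 anchor genes in the 18 arrays, by group (horizontal axes). Points are single arrays, tumors carry their number, long horizontal lines are group means and vertical lines are 1 SD either side. Tumor 3 is lowest for Krt8, Krt5, Esr1 and Pgr and highest for Vim and Cd68, and the 6 normal glands lie closer together than the tumors for every gene shown.

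Over the 6 tumors, the mean centred value of the luminal list had r = -0.9 with that of the mesenchymal transition list. It had r = -0.82 with the skeletal muscle list and -0.7 with the macrophage list. With neutrophil, fibroblast and matrix, and dendritic cell genes r was -0.48, -0.07 and 0.34. The skeletal muscle list in turn had r = 0.89 with macrophage and 0.76 with mesenchymal transition genes. These are descriptions without a test, and tumor 6 had luminal (0.36), macrophage (0.67) and neutrophil (1.31) values all above the tumor mean. Tumor 3 had the lowest luminal value (-1.78) and the highest mesenchymal transition (0.74), macrophage (1.03) and skeletal muscle (1.62) values. How far these r rested on tumor 3 was not tested. Vim, the intermediate filament vimentin, had 11.95, 11.58, 12.62, 11.72, 11.56 and 11.79 in tumors 1 to 6 (SD 0.395), against 11.95 to 12.18 in hyperplastic and 11.74 to 12.06 in normal glands. Tumor 3 decided this spread, as the SD without it was 0.160. Of the 13 genes of the mesenchymal transition list, 9 were highest in tumor 3. Axl, a receptor tyrosine kinase, was at 10.79 in tumor 3 and between 8.85 and 9.40 in the others, and Prrx1, a mesenchymal transcription factor, at 8.35 and between 6.48 and 7.24. Snai2 did not follow, with 10.47, 9.09, 8.53, 10.49, 9.83 and 8.12, and was lowest in tumor 6. The fibroblast and matrix list varied less, with a median SD of 0.417 in tumors and a median pairwise r of 0.24, and 5 of its 15 genes were highest in tumor 3 and 5 in tumor 6.

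Macrophage genes were higher in tumor 3, and next in tumor 6. Cd68, a lysosomal protein of macrophages, had 9.48, 8.68, 10.42, 8.94, 9.06 and 9.40 (SD 0.608), against 8.73 to 9.58 in hyperplastic and 8.47 to 9.14 in normal glands. Without tumor 3 the SD of Cd68 was 0.329. Msr1, a scavenger receptor, had 7.44, 6.77, 10, 7.42, 6.77 and 8.27, and Itgam, the integrin CD11b, had 8.45, 7.83, 10.49, 8.14, 7.70 and 9.41. Tumor 3 was highest for 16 of the 20 macrophage genes and tumor 6 for the other 4, among them Gpnmb (9.96 in tumor 6, 6.49 to 7.47 in the others) and Mmp12 (9.04 in tumor 6, 4.68 to 7.25 in the others). Mmp12 passed the level of 6, set on the tumor mean, only through its value in tumor 6. The median SD of the list was 0.695 in tumors, against 0.392 in hyperplastic and 0.197 in normal glands. Its median pairwise r was 0.85, and the part of tumor 3 in this r was not tested. Of 20 measured neutrophil genes, 11 passed the level of 6, which is set on the tumor mean. Tumor 6 was highest for 9 of the 11 (median SD 0.856, against 0.588 in hyperplastic and 0.139 in normal glands). Among them, Clec4d was above 6.02 only in tumors 3 and 6 (7.57 and 7.32). Il1b, the inflammatory cytokine, had 7.19, 7.87, 10.17, 9.43, 8.53 and 10.57 in tumors 1 to 6.

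Over the 15 pairs of the 6 anchor genes, 3 correlations across the 6 tumors passed an adjusted p of 0.05 (exact permutation of all 720 pairings, two-sided, Benjamini-Hochberg over 15 pairs). Krt8 and Cd68 were opposed, with Pearson r = -0.99 (exact p = 0.00139, the smallest that 720 pairings can give, adjusted p = 0.0209) and Spearman rho = -1.0 (exact p = 0.00278, adjusted p = 0.0417). Leaving out tumors 2 and 3, the farthest from the median of Krt8, gave r = -0.98. Krt8 and Vim had r = -0.95 (exact p = 0.00556, adjusted p = 0.0417) and rho = -0.83 (exact p = 0.0583, adjusted p = 0.0972), with r = -0.83 without tumors 2 and 3. Vim and Cd68 had r = 0.96 (exact p = 0.00972, adjusted p = 0.0486) and rho = 0.83 (exact p = 0.0583, adjusted p = 0.0972), with r = 0.68 without tumors 1 and 3. The last 2 pairs therefore passed by r but not by rank. The 2 hormone receptors had r = 0.87 (exact p = 0.0264, adjusted p = 0.0833) and rho = 0.83 (exact p = 0.0583, adjusted p = 0.0972), and r = 0.62 without tumors 2 and 3. Krt8 and Krt5 had r = 0.72 (exact p = 0.114, adjusted p = 0.142) and rho = 0.37 (exact p = 0.497, adjusted p = 0.497). This r was 0.7 without tumors 2 and 3, -0.2 without tumor 3 alone and 0.92 without tumor 2 alone. None of the 5 pairs with Krt5 passed. For Krt5 with Vim and with Cd68, r was -0.82 and -0.76 over 6 tumors, 0.29 and 0.27 without tumor 3, and -0.85 and -0.73 without tumor 4, so that the sign rested on tumor 3. The sign of r of Krt5 with Esr1 (0.32) and Pgr (0.47) also turned without tumor 3, to -0.51 and -0.25.

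**Figure D3:**
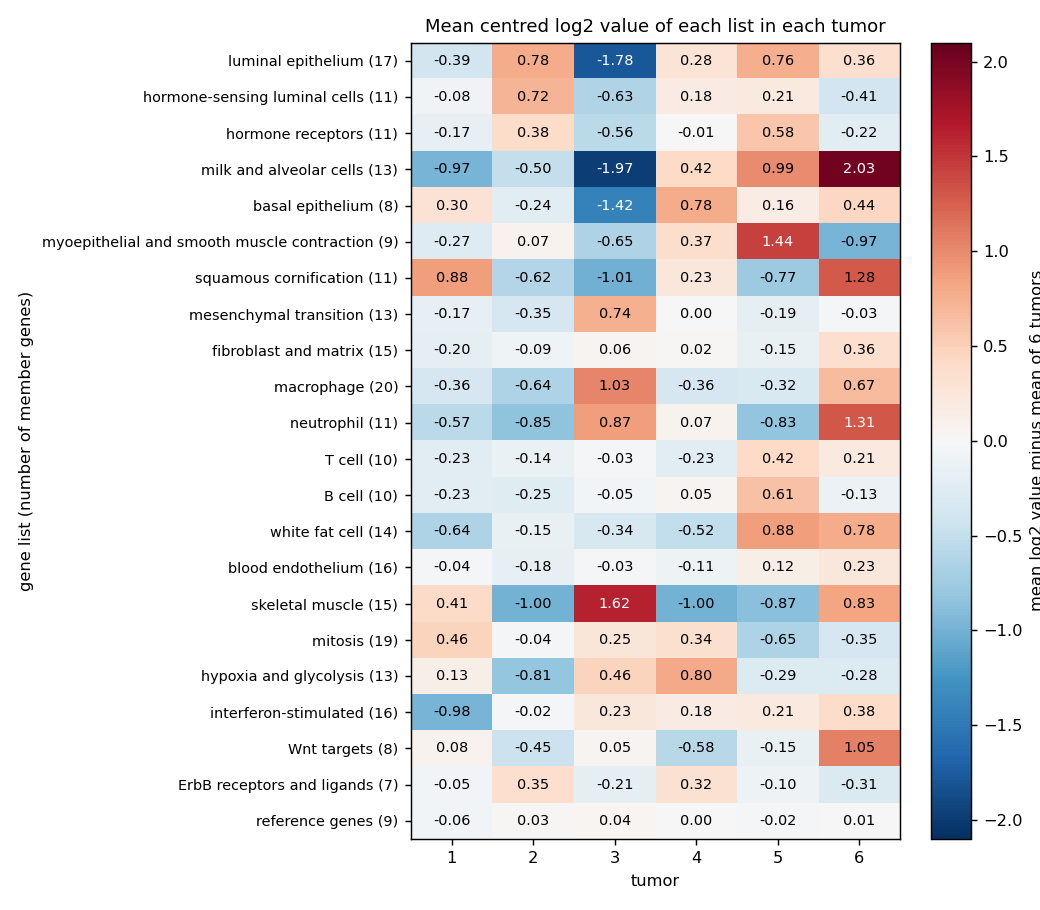
Mean log2 value of the member genes of each list in each tumor after centring every gene on its mean over the 6 tumors (color scale, log2 units). Rows are gene lists with the number of genes above the level of 6, columns are tumors 1 to 6. Tumor 3 is lowest for luminal (-1.78), milk (-1.97) and basal (-1.42) genes and highest for macrophage genes (1.03), tumor 6 is highest for milk genes (2.03), and tumor 1 is lowest for interferon-stimulated genes (-0.98).

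Several programs differed along other axes. All 16 interferon-stimulated genes above the level were lowest in tumor 1. Usp18, a negative regulator of interferon signaling, was at 6.79 in tumor 1 and between 8.78 and 9.19 in the other tumors, against 8.07 to 8.49 in hyperplastic and 7.62 to 8.32 in normal glands. Oas2, an antiviral enzyme, had 7.06, 8.17, 7.93, 8.96, 8.65 and 9.20. Hypoxia and glycolysis genes were highest in tumor 4 for 8 of 13 and in tumor 3 for 5, and lowest in tumor 2 for 10. Car9, carbonic anhydrase IX, had 6.88, 6.11, 7.36, 8.91, 6.76 and 6.30, and Adm, adrenomedullin, had 8.54, 7.07, 10.57, 10.24, 8.87 and 8.60. Among ErbB receptors and ligands the members did not move together (median pairwise r of -0.03). Erbb3 had 9.15, 10.54, 6.75, 9.54, 10.07 and 9.68, with tumor 3 lowest, while its ligand gene Nrg1 was lowest in tumor 6.

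Some programs were shared by all 6 tumors although they varied among them. All 19 mitosis genes had higher values in every tumor than in any of the 12 glands, a pattern found for 4.10% of the 27030 genes, and no test of the level was made here. Within tumors, 13 of the 19 were highest in tumor 1 and 16 were lowest in tumor 5, with a median pairwise r of 0.90 and a median SD of 0.471, against 0.183 in hyperplastic and 0.171 in normal glands. Bub1, a spindle checkpoint kinase, had 8.05, 7.08, 7.75, 7.66, 6.44 and 6.90 in tumors, against 5.37 to 5.98 in hyperplastic and 4.47 to 5.08 in normal glands. In the other direction, 3.44% of all genes had lower values in every tumor than in any gland. These included 14 of 15 measured white fat genes, 12 of 14 T cell genes, 14 of 15 B cell genes and 11 of 16 endothelial genes. Adipoq, the fat cell hormone adiponectin, had 6.13, 6.77, 6.77, 6.40, 8.30 and 8.13 in tumors, against 10.02 to 10.45 in hyperplastic and 10.08 to 10.48 in normal glands. Tumors 5 and 6 were highest for 6 and 8 of the 14 fat genes above the level. Cd3e, a subunit of the T cell receptor complex, had 6.61, 7.18, 7.11, 7.02, 8.12 and 7.04 in tumors, against 8.57 to 10.11 in hyperplastic and 8.29 to 9.62 in normal glands.

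Lymphocyte genes, like those of skeletal muscle, had a lower median SD in tumors than in hyperplastic glands. The median SD of 10 T cell genes was 0.390 in tumors, against 0.601 in hyperplastic and 0.354 in normal glands, and that of 10 B cell genes was 0.409, against 0.509 and 0.323. Only 1 of the T cell genes and 2 of the B cell genes had a higher SD in tumors than in hyperplastic glands. Of 14 T cell and 15 B cell genes measured, 10 of each passed the level of 6. Some of these lay near that level in every tumor but tumor 5, such as Cd4 (5.59 to 6.03) and Fcmr (5.86 to 6.20). The part of low signal in the smaller SD was not tested. Within the tumors, tumor 5 was highest for 8 of the 10 B cell genes and 5 of the 10 T cell genes. The level is set on the tumor mean, and Cd4 and Fcmr passed it through tumor 5 (7.14 and 7.32). These counts therefore depend in part on the level. Ighm, the immunoglobulin mu heavy chain, was at 8.76 in tumor 5 and between 6.63 and 7.17 in the other tumors, against 9.48 to 10.98 in hyperplastic and 10.48 to 11.33 in normal glands.

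At the other end, Arhgap33 had the lowest SD, 0.0161, with values of 6.87, 6.84, 6.82, 6.85, 6.86 and 6.86 in tumors 1 to 6. Its SD was 0.0639 in hyperplastic and 0.151 in normal glands. The next lowest were Gm6736 (0.0178), Rexo1 (0.0199), Gm12138 (0.0232), Prmt9 (0.0239), Isoc2b (0.0271), Ccdc184 (0.0273), C1d (0.0275), Wrap73 (0.0282) and Gm8399 (0.0283). All 10 had a higher SD in each group of glands than in tumors, a direction that the choice of the lowest SD in tumors favors. They held no gene of the lists. Gm8399 was the most highly expressed of them, at 12.57 to 12.65 in tumors, 12.19 to 12.44 in hyperplastic and 12.09 to 12.30 in normal glands. Common reference genes were also steady as a set, with a median SD of 0.145 over 9 genes, but not each of them, as Gusb had 7.66, 7.41, 8.51, 7.59, 7.43 and 8.07 (SD 0.431). The genes nearest the level of 6 were Gdf5 and Hmgb1l just above it (SD 0.119 and 0.131) and Gm6257 and Dmrtc1a just below it (SD 0.104 and 0.0556).

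Over the 14370 genes as a whole, the tumors were more dispersed than the glands. For 10849 genes (75.5%) the tumor SD exceeded that of normal glands, and for 11517 genes (80.1%) it exceeded that of hyperplastic glands, with median ratios of 1.61 and 1.62. Among tumors 331 genes reached an SD above 1, against 55 among hyperplastic and 11 among normal glands. An SD above 0.5 was reached by 11.2% of genes in tumors, 2.56% in hyperplastic and 0.501% in normal glands. The jackknife standard error over arrays was 11.7 percentage points for the share against normal glands and 6.26 for the share against hyperplastic glands. Genes are not independent replicates, and these shares carry no test.

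**Figure D4:**
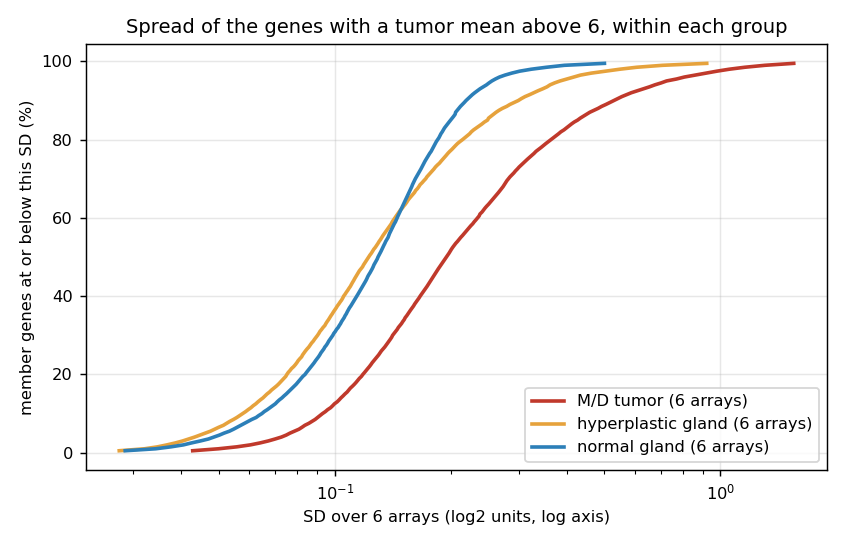
Share of the 14370 genes (vertical axis, percent) with an SD over 6 arrays at or below the value on the horizontal axis (log2 units, log axis), for M/D-driven tumors, hyperplastic glands and normal glands. The tumor curve lies to the right, with a median of 0.195 against 0.122 and 0.129, and hyperplastic and normal glands cross, hyperplastic glands having more genes above 0.5 (2.56% against 0.501%).

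A test of the difference in spread was made gene by gene, with limma on the absolute deviations of all 18 arrays from their group means and Benjamini-Hochberg adjustment over 27030 genes. At an adjusted p of 0.05 it called 1489 of the 14370 genes more variable and 15 less variable in tumors than in normal glands, and 710 more and 9 less variable than in hyperplastic glands. Over all 27030 genes the shares called were 6.82% and 0.166% against normal glands and 3.35% and 0.122% against hyperplastic glands. These calls did not survive other forms of the same test. With deviations from group medians, with squared deviations, or with only the 2 groups compared in the fit, 0 genes passed in either comparison and direction. Unadjusted p-values under 0.05 were given to 21.9% of genes in the comparison with normal glands and 19.6% in that with hyperplastic glands by the first form, and to 12.3% and 10.1% with group medians, where the smallest adjusted p was 0.184 and 0.284. Of 5222 negative control probe sets, 11.2% and 10% had an unadjusted p under 0.05 in the first form. The counts of genes called are therefore given for completeness, and no single gene is reported here as more or less variable by test.

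The spread rested in part on tumors 3 and 6. Without both, a choice made after seeing the data, the median SD of the remaining 4 tumors was 0.162, and 64.3% and 65.9% of genes had a higher SD in tumors than in normal and hyperplastic glands. Of the 20 genes of highest SD, 10 were also among the 20 highest of tumors 1, 2, 4 and 5, led by Saa2 (SD 2.64 over 4 tumors), Lalba (2.64), Krtdap (2.58), Klk14 (2.52) and Saa1 (2.48). Wnt1 and Eya1 entered this list, with 2.36 and 2.24. Array quality, as the area under the curve that separates positive from negative control probe sets, was 0.877 to 0.917 in tumors, 0.871 to 0.897 in hyperplastic and 0.865 to 0.880 in normal glands.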

How the data were processed

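RNA from 6 M/D-driven tumors, 6 hyperplastic glands and 6 normal glands was hybridized to 1 Affymetrix array each. The deposited values are log2 RMA values, which the authors made with Affymetrix Expression Console (RMA correction, quantile normalization and summary of probes) and passed to Partek, per the submitters' processing notes. Versions of these tools are not given in the sources used here. The paper instead names Affymetrix TAC, with a version, for normalizing these array data. Quantile normalization gives the probes of all arrays the same distribution before they are summarized. The summarized values still differed somewhat, with array medians between 5.31 and 5.51. The series table held 65535 entries, of which 6732 were controls, and the second table of 58776 entries was identical wherever the 2 overlapped. Names came from the platform annotation, with 27309 clusters of 1 symbol, 1957 of several and 29537 of none. Of 198 genes with several clusters 1 was kept, giving 27030 genes. Apart from 5 genes placed on chromosomes 17, 18 and 19 and 301 with no chromosome in the RefSeq table, genes of those chromosomes were not analysed here.

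SDs, principal components, list values and average linkage groups were computed with Python 3.11.15, numpy 2.4.6, pandas 2.3.3 and scipy 1.17.1, and figures with matplotlib 3.10.9. Spread was tested with limma 3.58.1 (R 4.3.3) on absolute deviations from group means in 18 arrays, with a trended and robust eBayes prior and Benjamini-Hochberg adjustment over 27030 genes. The script was tested on simulated data. The anchor pairs were tested by exact permutation of 720 pairings. A list value is the mean of the log2 values of its genes after centring each on the mean of the 6 tumors, and has no test. Arrays give no read depth, and their number limits the precision.

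Genes named in the text were the 20 of highest and 10 of lowest SD, the anchor genes, up to 4 genes of highest SD per list, the 5 at each end of the first 2 components and members of the linkage groups, besides those said to be chosen after their values were seen and a few of the same kind (Csn3, Elf5, Ltf, S100a9, Muc15, Stmn2, Igf2, Hmga2, Ptgs2 and Ereg). The member genes and the lists were chosen with earlier results of these data known. Alternatives were other centers and fits of the test, other levels, reference gene centring, the mean of a gene's clusters, the median absolute deviation (MAD) and leaving out each array.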

Additional observations from a re-analysis of the deposited data

Results flagged for a closer look

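Of 59 sets of tumor values checked (the 20 genes of highest and 10 of lowest SD, the 6 anchor genes and the gene lists with at least 5 genes), 10 had 1 tumor far from the other 5, by a gap above the 95% critical value of the Dixon test for 6 samples. Chance gives this in about 1 of 20 unselected sets, a rate that does not hold for the 30 genes chosen by their SD, so the 10 are not set against it. Over all 14370 genes, 8.01% showed it in tumors, against 7.32% in hyperplastic and 6.83% in normal glands.

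Tumor 6 was far above the others for Csn1s2a (12.76), Csn2 (11.59), Krt28 (11.06), Krt73 (11.02) and Gm11595 (11.38). Tumor 3 was far above the others for Vim (12.62) and for the mean centred value of the mesenchymal transition list (0.74). Tumor 1 was far below the others for the interferon-stimulated list (-0.98). Tumor 5 was far above the others for the B cell list (0.61) and, within a range of hundredths, for Gm6736 (9.65). Fcmr, a gene of the B cell list, passed the level of 6 through tumor 5, so that value depends in part on the level.

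Among 8079 transcript clusters without a single gene name and with a tumor mean above 6, which entered no comparison of the report, 228 were called more variable in tumors than in normal glands by limma on absolute deviations from group means, and 2 less variable. Against hyperplastic glands the counts were 124 and 0. Of 5222 negative control probe sets, 1 was called more variable and 1 less variable against normal glands. This test called 0 named genes in 3 other forms, and those forms were not run on the unnamed clusters.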

How the results depend on the processing

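The counts of genes called by the limma test of spread depended on its form. In the order more and less variable than normal glands, then more and less variable than hyperplastic glands, the counts were 1489, 15, 710 and 9. Deviations from the group median, squared deviations and a fit of only the 2 groups compared each gave 0, 0, 0 and 0, and the cause was not tested. An eBayes prior without trend and robust steps gave 794, 6, 336 and 7. A tumor mean above 5 gave 28 and 17 genes less variable than normal and hyperplastic glands, and a tumor mean above 7 gave 1 less variable than hyperplastic glands. Centring arrays on 9 reference genes, which shifted an array by at most 0.15, gave 70 less variable than normal glands. Leaving out each array gave ranges of 618 to 2312, 5 to 26, 133 to 1524 and 2 to 19. Leaving out normal gland 1, 2, 3, 4 or 5 lowered the count more variable than normal glands to between 618 and 840, and leaving out tumor 4 raised it to 2312. Leaving out hyperplastic gland 1, 2, 3, 4 or 6 gave 133 to 461 genes more variable than hyperplastic glands, and leaving out tumor 1, 2, 4, 5 or 6 gave 1140 to 1524. Without tumors 3 and 6, chosen after seeing the data, 17 were less variable than hyperplastic glands.

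For samples with the same number, the deviations of tumors and normal glands had r of -0.23 to 0.11. Between tumors and hyperplastic glands r was -0.06 to 0.47, highest for number 5. Such values cannot tell whether samples of the same number share a mouse or a batch. With the replicate block, 1825 and 25 genes were more and less variable than normal glands, and 1037 and 13 than hyperplastic glands.

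The direction of the SD comparison held under every alternative run. The share of genes with a higher SD in tumors ranged from 69.3% to 86.3% against normal glands and from 72.8% to 82.4% against hyperplastic glands over the arrays left out, and the median SD from 0.176 to 0.201. With the MAD the share against hyperplastic glands was 72.3% and the median 0.16. Without tumors 3 and 6 these were 65.9% and 0.162. Of the 20 genes of highest SD, 9 remained without tumor 6, 15 to 18 without any other tumor, and 8 with the MAD. The SD was 0.715 for Krt8 and 0.329 for Cd68 without tumor 3. Reference centring and leaving out a tumor reversed none of the 3 anchor correlations called, but without tumor 3 the sign of r turned for all 5 pairs with Krt5.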
